A study of Mus musculus with 9 samples.

Results

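The genes of the mitochondrial respiratory chain were followed across 9 RNA-seq libraries of mouse myocardium. Members were taken from the gene count matrix by mouse symbol. These were the symbols that begin with mt-, with Ndufa, Ndufb, Ndufc, Ndufs or Ndufv and a digit, with Uqcr, with Atp5, or with Cox and a digit from 4 to 8, and in addition Sdha, Sdhb, Sdhc, Sdhd, Cyc1 and Cycs. The rule found 105 of the 22851 genes, of which 16 are mt- genes and 89 are nuclear. The mt- genes comprise 13 genes for proteins, 2 for ribosomal RNAs (mt-Rnr1, mt-Rnr2) and 1 for a transfer RNA (mt-Tp). The nuclear members comprise 80 entries for subunits (34 of complex I, 4 of complex II, 9 of complex III, 15 of complex IV, 17 of complex V and 1 for cytochrome c), 6 pseudogenes or non-coding genes and 3 relatives that are not counted as subunits here (Atp5s, Cox7a2l, Ndufa4l2). Atp5o has a pair of identifiers among the 80. Cox4i1, Cox6a2 and Ndufa13 were not analysed here.

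All mice were male, C57BL/6 in the labels and C57BL/6J in the methods, which give an age of 6 to 8 weeks, and each group has 3 libraries. CK is the normal control group, given the citrate buffer alone. DCM is a model of diabetic cardiomyopathy made with streptozotocin, a toxin of pancreatic beta cells, and examined after 12 weeks. SPM mice received spermine, a polyamine, at 1 mg/kg daily for 2 weeks before streptozotocin and every other day through the following 12 weeks. The comparison of DCM with CK asks what the diabetic model changed. The comparison of SPM with DCM asks how mice given spermine and streptozotocin differed from those given streptozotocin without spermine. Spermine began before streptozotocin and no group received it alone, so its action on the diabetes and on the heart cannot be told apart. Since the methods speak of 3 mice per group in one place and of pools of 6 hearts in another, p-values measure only the spread between these libraries.

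The respiratory chain passes electrons from NADH (complex I) and succinate (complex II) through complex III and cytochrome c to oxygen at complex IV, and complex V, the ATP synthase, makes ATP from the proton gradient that results. Complexes I, III, IV and V combine subunits from the mitochondrial genome with subunits from nuclear genes, whereas complex II and cytochrome c are wholly nuclear. Mitochondrial genes are transcribed inside the organelle by their own polymerase, as long transcripts that are then processed into single RNAs. The heart, which depends on oxidative phosphorylation, holds these RNAs at very high levels.

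Gene counts summed to between 29901300 and 39718680 per library. SPM replicate 2 stands apart from the other libraries, because its counts could be fitted as a mixture of 46% SPM replicate 1 with the rest from SPM replicate 3. Over 11170 genes the median squared deviation from that mixture was 0.874 times the counting noise, and the next smallest of the 252 combinations of libraries examined gave 2.64. The main counts of members that passed in SPM are therefore given with and without SPM replicate 2. All 13 cardiomyocyte markers in the matrix were above 1 CPM (counts scaled to library size) in every library, with sums of 72770 to 79664 CPM for CK, 68804 to 78738 for DCM and 60691 to 67285 for SPM. The SPM sums thus lay below those of the other groups. This was not particular to cardiomyocytes. Endothelial sums were 3468 to 3963 CPM for CK, 3437 to 3687 for DCM and 3305 to 3428 for SPM. Fibroblast sums were 5691 to 5930 CPM for CK, 5012 to 5585 for DCM and 4682 to 5156 for SPM. Of 12 macrophage markers, 8 fell and 1 rose in DCM compared to CK, beside 5.11% and 5.28% of all genes. In SPM compared to DCM 7 rose and 0 fell, beside 8.87% and 7.76% of all genes. Without SPM replicate 2 these were 0 and 0 in edgeR, and with the GC offset described below 4 and 0. Macrophage sums were 863 to 1132 CPM for CK, 707 to 838 for DCM and 840.0 to 1435 for SPM. Of 11 fibroblast markers 7 fell in DCM compared to CK, and 2 rose in SPM compared to DCM. Of 12 endothelial markers 2 fell in DCM compared to CK and 2 in SPM compared to DCM. Of the cardiomyocyte markers 0 passed in DCM compared to CK and 2 fell in SPM compared to DCM. Without SPM replicate 2, only 1 endothelial fall was left in SPM compared to DCM. Against CK 7 cardiomyocyte markers fell and 1 rose in SPM, beside 14.3% and 13.0% of all genes. Without SPM replicate 2 these were 1 and 0, and with the GC offset 4 and 2. Fibroblast markers also differed in SPM compared to CK, where 7 fell and 2 rose. These were 6 and 0 without SPM replicate 2, and 5 and 1 with the GC offset. Of the endothelial markers 3 fell and 1 rose against CK, and of the macrophage markers 0 fell and 1 rose. All these markers were above 1 CPM in every library, and their part in the results was not tested. In such bulk samples, fewer cells of a type and less RNA per cell cannot be told apart. Although the extraction protocol in the labels names retinas, none of the 9 retina markers in the matrix reached 1 CPM in any library, and their sum stayed between 0.584 and 1.93 CPM.

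The mt- genes differ from the nuclear ones in base composition, which the later comparison of fold change with GC content turns on. GC content of the longest transcript was 31.9% to 41.1% over the 13 mt- protein genes (median 37.1%) and 37.0% to 63.3% over the 77 nuclear subunits tested (median 50.2%). The opening 60 bases of 3 mt- genes show this directly, with G and C in capitals: the mt- protein gene of lowest GC content, the 1 encoded on the other strand, and the most abundant one. They come from the GENCODE M21 transcripts (GRCm38), with mt-Atp8 at chrM:7766-7969 (+), mt-Nd6 at chrM:13552-14070 (-) and mt-Co1 at chrM:5328-6872 (+).
mt-Atp8: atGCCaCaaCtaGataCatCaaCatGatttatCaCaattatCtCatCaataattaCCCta
mt-Nd6: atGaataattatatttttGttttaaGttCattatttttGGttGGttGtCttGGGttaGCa
mt-Co1: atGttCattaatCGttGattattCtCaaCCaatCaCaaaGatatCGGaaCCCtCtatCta
In these stretches 18, 15 and 20 of the 60 bases are G or C.

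A second feature of sequence decides how far single mt- genes can be read. The transcripts of mt-Nd3, mt-Nd4l, mt-Co2, mt-Co3 and mt-Atp6 are covered over more than 90% of their length, at an identity of at least 99%, by nuclear copies annotated on chromosome 1 of GRCm38 (Gm28438, Gm10222, Gm28661, Gm28437 and Gm10925). At a looser identity of 97%, mt-Co1 is covered in full by Gm13340 and Gm29216 together. A copy also covers 63.6% of mt-Nd4 (Gm28439) and 31.3% of mt-Co1 (Gm29216). The opening 28 bases of mt-Nd3 and of its copy Gm28438 (chr1:24612775-24613119) show how few reads could tell them apart. Capitals mark the single difference in 345 bases, written T3C with positions counted from 1 at the start of the mt-Nd3 transcript.
mt-Nd3: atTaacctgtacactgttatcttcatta
Gm28438: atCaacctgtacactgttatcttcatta
The share of the pair's counts placed on mt-Nd3 ran from 44.0% to 85.5% over the libraries, and that on mt-Co2 against Gm28661 from 65.5% to 93.4%. The values of these 5 genes are therefore uncertain, and the 8 others are also summarised separately. In addition, mt-Atp8 overlaps mt-Atp6 and mt-Nd4l overlaps mt-Nd4, and mt-Nd6 lies on the strand opposite to its neighbours in libraries whose strandedness is not stated.

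Levels were compared between genes per length, as FPKM (fragments scaled to transcript length and library size) averaged over the 9 libraries. The most abundant member was mt-Co1, the catalytic subunit of complex IV, at 72699 FPKM. It was followed by mt-Cytb, the cytochrome b of complex III, at 19094, and mt-Nd1 at 16160. The most abundant nuclear subunits of complexes II to V, and cytochrome c, were lower. They were Atp5b, the catalytic beta subunit of ATP synthase, at 3696 FPKM, Sdhb, the iron-sulfur subunit of complex II, at 799, Cox6b1 of complex IV at 787, Uqcrfs1, the Rieske iron-sulfur protein of complex III, at 682, and Cycs, cytochrome c, at 149. Some members had far lower levels than most other members of their complex. Among them were Uqcrc1 at 14.5 FPKM, Atp5a1 at 47.7, Ndufb2 at 1.68, Ndufs3 at 0.105 and mt-Atp8 at 1.47. In complex V, Atp5l at 34.1 was lower than Atp5a1. Ndufs3 shares 83.8% of its transcript with other genes, and it was not tested in any comparison for low counts. The cause of the low levels of Uqcrc1 and Atp5a1 was not tested, and their fold changes given below rest on these levels.

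The mt- genes took 13.7%, 16.2% and 15.4% of all gene counts in the 3 CK libraries, 16.8%, 15.5% and 18.9% in DCM, and 21.1%, 21.0% and 21.1% in SPM. The 95% Wilson interval of each of these shares and of those that follow was at most 0.0285 percentage points wide, which covers counting error only. All SPM libraries lay above all DCM and CK libraries, while DCM and CK overlapped. The group means were 15.1% ± 1.24 in CK, 17.1% ± 1.74 in DCM and 21.1% ± 0.0450 in SPM (SD, n = 3 each). Because SPM replicate 2 could be fitted as a mixture of the other SPM libraries, SPM SDs here and below may understate the spread between independent libraries. Most of these counts fell on mt-Co1, with 9.67% ± 0.323 in CK, 11.3% ± 1.11 in DCM and 12.8% ± 0.338 in SPM. The mt- genes other than mt-Co1 held 5.41% ± 1.00 in CK, 5.81% ± 0.777 in DCM and 8.30% ± 0.327 in SPM. Because a larger mt- share lowers the share of every other gene, nuclear members were expressed as a share of nuclear counts. They held 4.81% ± 0.0258 in CK, 4.89% ± 0.119 in DCM and 4.497% ± 0.111 in SPM. The highest SPM library (4.62%) was below the lowest DCM library (4.75%) and the lowest CK library (4.79%), so the mt- and the nuclear members stood on opposite sides of DCM in SPM.

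**Figure D1:**
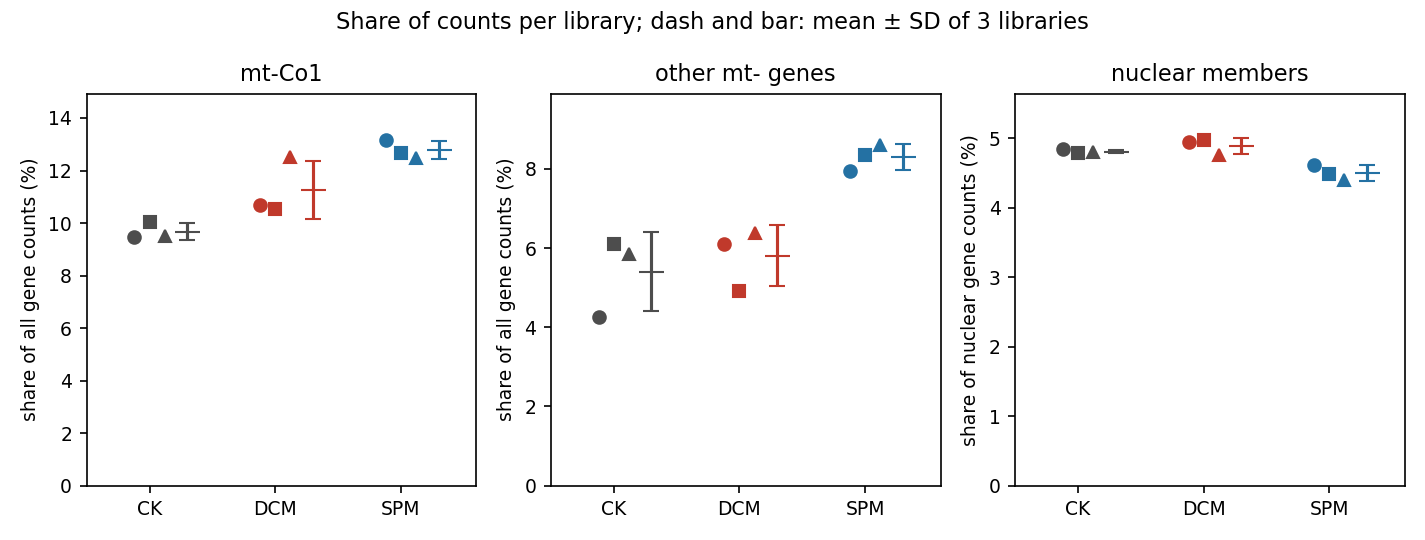
Share of gene counts per library for mt-Co1, for the other mt- genes (both in percent of all gene counts) and for the nuclear members (in percent of nuclear gene counts), with points for the replicates of CK, DCM and SPM and a bar for mean ± SD of 3 libraries. The other mt- genes lie between 7.95% and 8.60% in SPM, above all CK and DCM libraries, and the nuclear members between 4.39% and 4.62%, below them.

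In complexes I, II, III and V the shares of SPM were below those of DCM. Complex I subunits made up 1.15% to 1.22% of nuclear counts in DCM and 1.06% to 1.09% in SPM, complex II 0.496% to 0.504% and 0.458% to 0.462%, and complex III 0.560% to 0.579% and 0.514% to 0.522%. Complex V subunits held 1.90% to 1.99% in DCM and 1.75% to 1.86% in SPM. For complex IV the ranges overlapped, at 0.534% to 0.590% in DCM and 0.4998% to 0.561% in SPM. Cytochrome c went the other way, from 0.0478% to 0.0556% in DCM to 0.0608% to 0.0689% in SPM.

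In the comparison of DCM with CK, few members passed the test. Of the 12 mt- protein genes tested, 0 passed the test (edgeR quasi-likelihood, Benjamini-Hochberg adjusted p under 0.05 over all genes), and of the 77 nuclear subunits 3 rose and 0 fell, while 5.28% of all 14402 genes rose and 5.11% fell. The median log2 fold change was 0.17 for the mt- protein genes, 0.05 for the nuclear subunits and -0.0025 for all genes. At an unadjusted p under 0.05, 3 of the mt- protein genes had passed, and DESeq2 called 2 of them (mt-Co1 and mt-Nd5). The nuclear genes that rose were Cox6b2, Atp5a1 and Ndufa7, each in a different complex.

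Cox6b2 encodes a form of the complex IV subunit VIb that is best known from testis, and it was the only DEG, defined as a gene past the adjusted p with a fold change of at least 1.5. DEGs made up 2.03% (higher) and 2.31% (lower) of all genes. Its level was 1.85, 2.18 and 2.08 CPM in CK, 5.75, 4.3 and 4.07 in DCM and 3.02, 2.77 and 3.35 in SPM. The DCM libraries were higher than both other groups, and SPM lay between (log2 fold change 1.21 ± 0.22 (SE), adjusted p = 0.00432). Its abundant counterpart Cox6b1 was measured at 509, 469 and 470.1 CPM in CK, 549.8, 551 and 474 in DCM and 478, 451 and 424 in SPM, with overlapping groups (0.12 ± 0.08 (SE), adjusted p = 0.394). Atp5a1, the alpha subunit of the ATP synthase, was at 105, 108 and 126 CPM in CK, 129.7, 160.4 and 153 in DCM and 135, 116 and 118 in SPM, all DCM libraries being above all CK libraries (0.38 ± 0.09 (SE), adjusted p = 0.0214). Ndufa7, an accessory subunit of complex I, was at 191, 180.5 and 179 CPM in CK, 232, 238 and 199 in DCM and 204, 188 and 178 in SPM (0.28 ± 0.08 (SE), adjusted p = 0.0426).

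Ndufa4l2, a relative of Ndufa4 known as a target of hypoxia-inducible factor and not counted as a subunit, fell in DCM. It was measured at 30.2, 24.8 and 27.1 CPM in CK, 22.5, 20.6 and 20.6 in DCM and 16.2, 18.3 and 20.5 in SPM, with all DCM libraries below CK and all SPM libraries below DCM (log2 fold change -0.37 ± 0.10 (SE), adjusted p = 0.0294 in DCM compared to CK). Ndufa4 itself stood at 775, 759 and 769 CPM in CK, 779, 776 and 715 in DCM and 832, 746 and 706 in SPM, and its groups overlapped. Among the nuclear subunits, 17 had all DCM libraries above all CK libraries and 2 had them below, against 14.5% and 14.8% of all genes tested.

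The mt- genes without a near-identical copy leaned upward in DCM without passing the test. All 7 tested had positive log2 fold changes (median 0.29). The closest was mt-Co1, at 90196, 95240 and 92292 CPM in CK, 106630, 109079 and 128343 in DCM and 135277, 129721 and 127904 in SPM (0.31 ± 0.09 (SE), adjusted p = 0.0516), where all DCM libraries were above all CK libraries. The ribosomal RNA genes had values on the other side, at -0.25, adjusted p = 0.337 for mt-Rnr1 and -0.48, adjusted p = 0.108 for mt-Rnr2. With a correction for GC content, which sets a smooth curve of each library's log2 CPM on GC content as an offset, 6 of the 12 mt- protein genes and 10 of the 77 nuclear subunits rose, mt-Rnr2 fell, and 12.2% of all genes then rose and 4.14% fell. This correction moved the median of all genes by 0.09 on the log2 scale, and each of these rises includes that shift.

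In the comparison of SPM with DCM, the mt- and the nuclear members moved in opposite directions. Of the 13 mt- protein genes 10 rose and 0 fell, with a median log2 fold change of 0.80. Of the 8 without a near-identical copy 7 rose, with a lower median of 0.59. Of the 77 nuclear subunits tested 27 fell and 2 rose, with a median of -0.20. Among all 14493 genes tested 8.87% rose and 7.76% fell, with a median of 0.01. The medians differed in sign within every complex that has both kinds of gene, although with the GC offset this held in complexes I and V only. In complex I (7 mt- genes) the mt- and nuclear medians were 0.80 and -0.22, and in complex III (mt-Cytb alone) 0.32 and -0.35. In complex IV (3 mt- genes) they were 0.19 and -0.21, and in complex V (2 mt- genes) 1.77 and -0.18. The mt- median of complex IV was the value of mt-Co1, which did not pass. That of complex V rests on mt-Atp6, which has a near-identical copy, and mt-Atp8, which had very few reads. Complex II, which has no mt- gene, had a median of -0.14. By library, the mean log2 level of the 5 complex I mt- protein genes without a near-identical copy minus that of the 33 nuclear subunits ran from 3.77 to 4.37 among CK, from 3.94 to 4.64 among DCM and from 5.23 to 5.46 among SPM libraries.

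**Figure D2:**
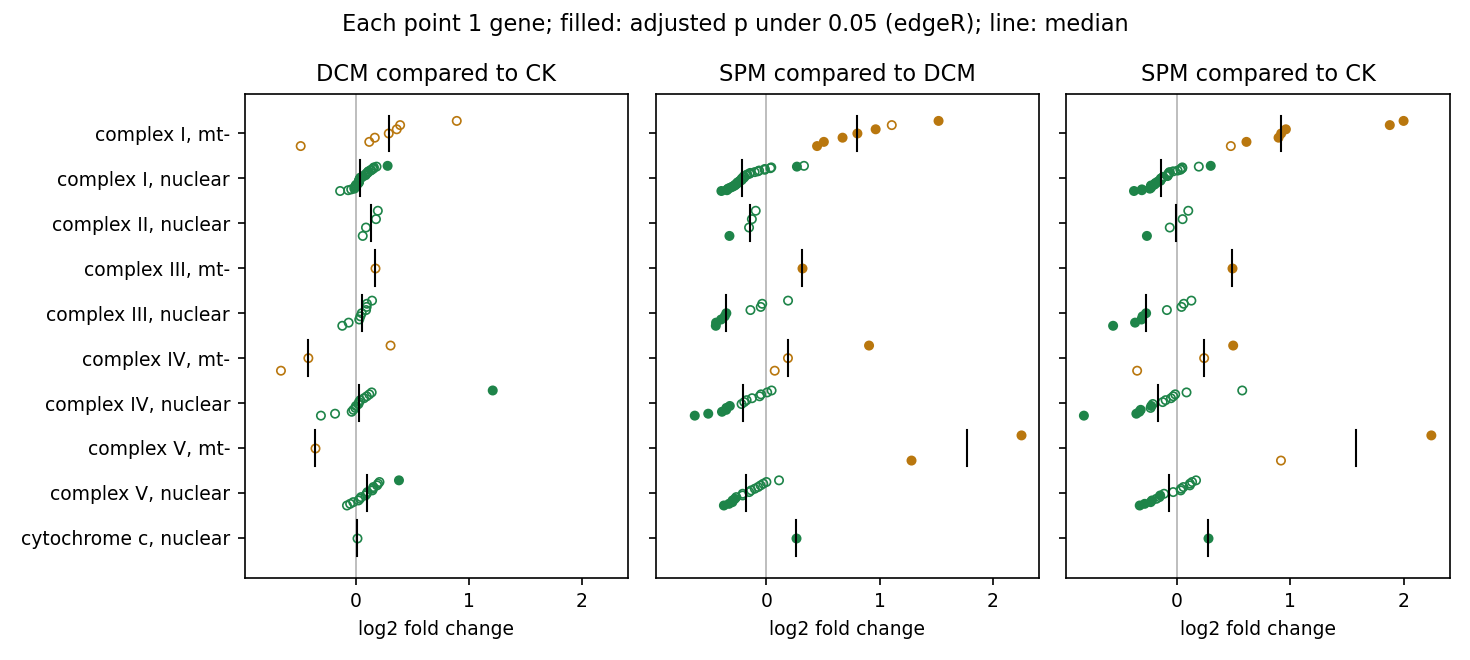
Log2 fold change (x axis) of each mt- protein gene and nuclear subunit by complex (y axis) in the 3 comparisons, filled where the adjusted p was under 0.05, with a line at each median. In SPM compared to DCM the mt- medians lie between 0.19 and 1.77 and the nuclear medians of complexes I to V between -0.35 and -0.14, without the GC offset, under which the mt- medians of complexes III and IV are below 0.

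These calls rested on few libraries. Without SPM replicate 2, 4 of the 13 mt- protein genes rose (1 of the 8 without a near-identical copy) and none of the nuclear subunits passed in edgeR, while 0.357% of all genes rose and 0.128% fell, but the medians stayed at 0.81 and -0.20. Of all members, 41 passed with all libraries, 4 without SPM replicate 2, 5 without DCM replicate 2 and 11 without DCM replicate 1. At an unadjusted p under 0.05, 32 of the nuclear subunits passed without SPM replicate 2.

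The complex I core subunits of the mitochondrial genome rose by different amounts. mt-Nd6 had 244, 391 and 419 CPM in CK, 559, 269 and 527 in DCM and 1165, 1308 and 1419 in SPM. Every SPM library was above every DCM and CK library (log2 fold change 1.52 ± 0.22 (SE), adjusted p = 0.00864). mt-Nd2 had 3224, 4802 and 4860 CPM in CK, 5592, 3264 and 5155 in DCM and 7737, 8169 and 8566 in SPM, and mt-Nd1 had 8885, 12084 and 12542 CPM in CK, 14138, 11301 and 15617 in DCM and 22224, 21843 and 21425 in SPM. In both genes the SPM libraries lay above the rest (0.80 ± 0.16 (SE), adjusted p = 0.0156 for mt-Nd2, and 0.67 ± 0.12 (SE), adjusted p = 0.0111 for mt-Nd1).

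mt-Nd5 and mt-Nd4, further antiporter-like subunits of complex I, rose less. mt-Nd5 was at 6106, 8338 and 8242 CPM in CK, 10888, 8219 and 10691 in DCM and 12864, 14236 and 15287 in SPM, a log2 fold change of 0.51 ± 0.12 (SE), adjusted p = 0.0221. mt-Nd4 was at 4417, 6156 and 6400 CPM in CK, 6294, 5626 and 7172 in DCM and 8098, 8742 and 9216 in SPM, 0.45 ± 0.10 (SE), adjusted p = 0.0205. For both, the SPM libraries lay above the DCM libraries without overlap. mt-Cytb was at 15361, 20065 and 20435 CPM in CK, 19912, 19792 and 23185 in DCM and 25087, 26218 and 27178 in SPM, the smallest rise that passed among the mt- genes (0.32 ± 0.09 (SE), adjusted p = 0.0442; with the GC offset -0.01, adjusted p = 0.953). mt-Co1 did not pass, its DCM replicate 3 being above SPM replicate 3 (0.19 ± 0.11 (SE), adjusted p = 0.225).

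mt-Atp8, which encodes a small membrane subunit of the ATP synthase, had the largest fold change on very few reads. Its raw counts were 5, 4 and 4 in CK, 8, 1 and 5 in DCM, and 18, 25 and 18 in SPM. The SPM libraries did not overlap the others, but each value carries the counting error of so few reads (2.25 ± 0.55 (SE), adjusted p = 0.0256). Its reads overlap those of mt-Atp6, which was at 36, 66.7 and 189 CPM in CK, 93.5, 55 and 78.2 in DCM and 236, 134 and 182 in SPM (1.28 ± 0.21 (SE), adjusted p = 0.0107).

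Of the genes with a near-identical nuclear copy, mt-Atp6, mt-Co3 and mt-Nd3 rose, and mt-Nd4l and mt-Co2 did not pass. mt-Co3, a core subunit of complex IV, was at 224, 1771 and 433 CPM in CK, 628, 500.3 and 409 in DCM and 983, 1005 and 899 in SPM, SPM being above DCM but below CK replicate 2 (0.91 ± 0.13 (SE), adjusted p = 0.00876). mt-Co2, the subunit that receives electrons from cytochrome c, was at 165, 1355 and 288 CPM in CK, 655, 382 and 317 in DCM and 524, 539.6 and 363 in SPM, and no group was separate (0.07 ± 0.23 (SE), adjusted p = 0.85). mt-Nd3 was at 14.4, 31.9 and 20.1 CPM in CK, 18, 13.2 and 16.3 in DCM and 30.3, 29.8 and 32.9 in SPM (0.97 ± 0.11 (SE), adjusted p = 0.00652). mt-Nd4l was at 11.4, 11.5 and 21.9 CPM in CK, 55.9, 11.2 and 15.4 in DCM and 89.7, 47.2 and 42.7 in SPM (1.11 ± 0.49 (SE), adjusted p = 0.14). CK replicate 2 was far above the other CK libraries for mt-Co2 and mt-Co3, and DCM replicate 1 far above the other DCM libraries for mt-Nd4l. Of the copies, Gm28439, Gm10222 and Gm28661 rose in SPM compared to DCM, with log2 fold changes of 0.93, 0.80 and 0.59 (adjusted p = 0.0161, 0.0173 and 0.0235, edgeR). In DCM compared to CK, Gm28437 (0.83, adjusted p = 0.00485), Gm28661 (0.81, adjusted p = 0.000462), Gm10925 (0.77, adjusted p = 0.048) and Gm29216 (0.62, adjusted p = 0.000996) rose in edgeR, while mt-Co3 and mt-Co2 had values of -0.66 and -0.42 and did not pass. For SPM against DCM, adding each copy to its mt- gene left 10 of 13 rising.

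Both mitochondrial ribosomal RNA genes rose as well. The libraries were made with mRNA enrichment and ribosomal RNA depletion. The counts of mt-Rnr1, mt-Rnr2 and mt-Tp, in every comparison, are therefore what remained after these steps. The ribosomal RNA genes held 0.138% to 0.320% of all gene counts per library, and the part of these steps in their changes was not tested. mt-Rnr1, for the small ribosomal subunit, was at 708, 931 and 921 CPM in CK, 802, 539.8 and 815 in DCM and 971, 1082 and 1168 in SPM (0.58 ± 0.14 (SE), adjusted p = 0.0254). mt-Rnr2, for the large ribosomal subunit, was at 1116, 1792 and 1830 CPM in CK, 1183, 893 and 1321 in DCM and 1661, 1907 and 2113 in SPM (0.74 ± 0.14 (SE), adjusted p = 0.0127). The SPM libraries were above DCM in both genes, while the SPM and CK libraries of mt-Rnr2 overlapped. mt-Tp stood at 97.7, 106 and 121 CPM in CK, 151, 98.3 and 140.1 in DCM and 163, 169 and 177 in SPM and did not pass (0.38 ± 0.13 (SE), adjusted p = 0.0672).

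**Figure D3:**
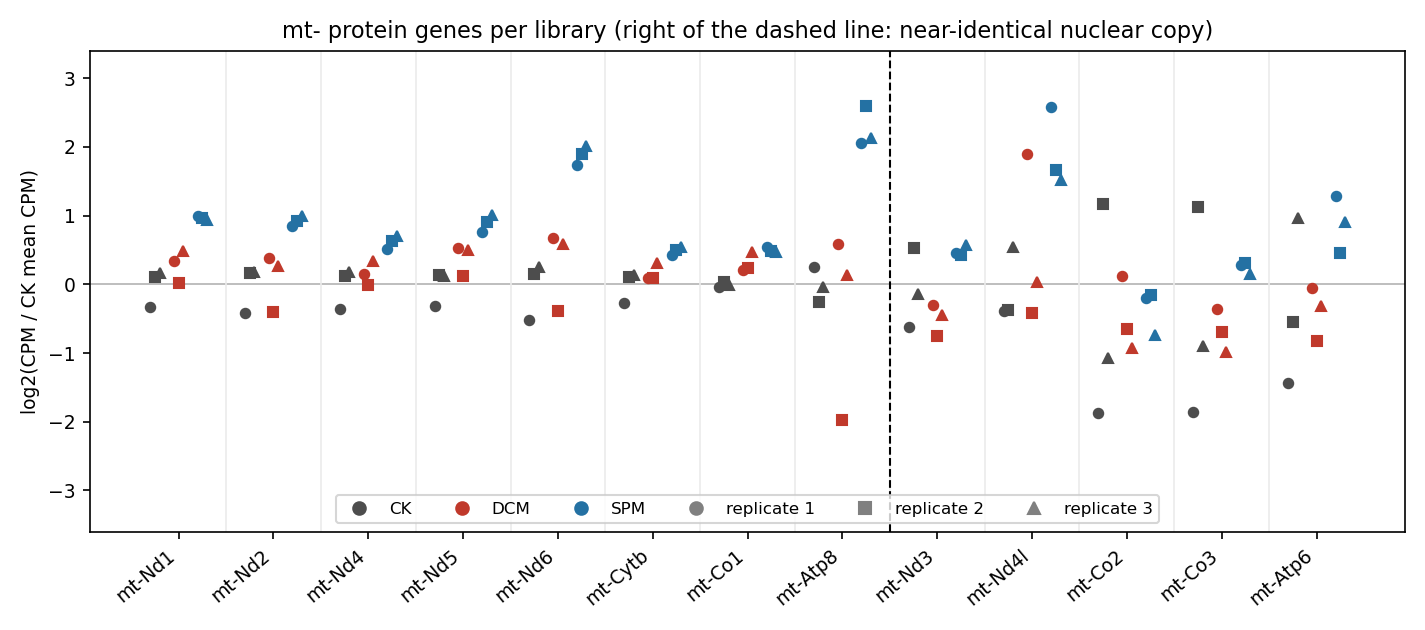
Log2 of CPM over the CK mean (y axis) for each mt- protein gene in each library, with colours for CK, DCM and SPM and symbols for the replicates. The 8 genes without a near-identical nuclear copy, at left of the dashed line, have the SPM libraries above the CK libraries. Of the 5 at right, mt-Co2, mt-Co3 and mt-Atp6 scatter widely in CK and mt-Nd4l in DCM. At left, mt-Atp8 scatters widely in DCM.

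Among the nuclear subunits of complex I, 10 fell and 1 rose. The largest fall was that of Ndufb8, an accessory subunit of the membrane arm often used as an indicator of assembled complex I, at 360.3, 335 and 337 CPM in CK, 375, 395 and 328 in DCM and 273, 279.5 and 281 in SPM (-0.40 ± 0.08 (SE), adjusted p = 0.0149). The SPM libraries were below all others. The gene that rose, Ndufc2, was at 60.9, 65.1 and 64.4 CPM in CK, 68.8, 60.4 and 65.2 in DCM and 82.6, 79 and 73.1 in SPM (0.27 ± 0.07 (SE), adjusted p = 0.037). SPM was above both other groups for it.

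In complex II, Sdhb fell. It was at 1056, 979.7 and 1038 CPM in CK, 1068, 1127 and 1017 in DCM and 853, 857 and 853 in SPM (-0.33 ± 0.07 (SE), adjusted p = 0.0182), with SPM libraries below all others. Sdha, Sdhc and Sdhd had log2 fold changes of -0.15, -0.09 and -0.13 and did not pass. In complex III, 5 of 9 subunits fell: Uqcrc1, Uqcrq, Uqcr11, Uqcr10 and Cyc1. Uqcrc1, a core protein, was at 37.4, 36.7 and 36.2 CPM in CK, 41.9, 35.5 and 44.5 in DCM and 28.8, 30.1 and 30.6 in SPM (-0.45 ± 0.09 (SE), adjusted p = 0.0145). Uqcrq, a small subunit near cytochrome b, was at 733, 694 and 674 CPM in CK, 651, 723 and 562 in DCM and 483, 478 and 463 in SPM (-0.44 ± 0.09 (SE), adjusted p = 0.0159). Cyc1, cytochrome c1, was at 1036, 935 and 989 CPM in CK, 998, 1080 and 969.9 in DCM and 765, 793 and 829 in SPM (-0.35 ± 0.07 (SE), adjusted p = 0.0167). For each of these 3 genes every SPM library was below every DCM and CK library. Uqcrfs1 did not pass (-0.14 ± 0.07 (SE), adjusted p = 0.158).

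In complex IV, 6 of the 14 nuclear subunits tested fell. Cox6b2 was the only nuclear DEG, falling from its DCM level (-0.63 ± 0.19 (SE), adjusted p = 0.0464). It did not pass without SPM replicate 2 or with the GC offset, under which another complex IV subunit was the nuclear DEG. Cox7a1, the heart and muscle form of subunit VIIa, was at 239, 244 and 219.6 CPM in CK, 192, 213 and 163 in DCM and 124, 133 and 141 in SPM. Its groups did not overlap, with CK highest and SPM lowest (-0.51 ± 0.10 (SE), adjusted p = 0.0133). Its widely expressed counterpart Cox7a2 was at 325, 318 and 313 CPM in CK, 321, 336 and 302 in DCM and 321, 289 and 269 in SPM and did not pass (-0.13 ± 0.08 (SE), adjusted p = 0.298). Cox5b was at 699.9, 685 and 652 CPM in CK, 718, 789 and 638 in DCM and 552, 543 and 541 in SPM (-0.39 ± 0.08 (SE), adjusted p = 0.018). Cox8b, the heart form of subunit VIII, fell (-0.35 ± 0.08 (SE), adjusted p = 0.0219), whereas Cox8a did not pass (-0.20 ± 0.09 (SE), adjusted p = 0.148). Cox6a1 fell (-0.35 ± 0.08 (SE), adjusted p = 0.019), and Cox4i2, a form of subunit IV associated with low oxygen, did not pass (-0.17 ± 0.10 (SE), adjusted p = 0.232).

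In complex V, 5 of 16 nuclear subunits fell. Atp5e, the epsilon subunit, was at 304, 306 and 289.8 CPM in CK, 337, 374 and 293 in DCM and 266, 258 and 251 in SPM (-0.38 ± 0.09 (SE), adjusted p = 0.0238). Of the 3 genes that encode the same mature c-ring subunit, Atp5g1 (-0.33 ± 0.09 (SE), adjusted p = 0.0397) and Atp5g3 (-0.30 ± 0.07 (SE), adjusted p = 0.0221) fell, and Atp5g2 did not pass (-0.15 ± 0.10 (SE), adjusted p = 0.294). Atp5b did not pass either (-0.21 ± 0.08 (SE), adjusted p = 0.0884), although all SPM libraries were below all DCM libraries. Cycs rose, at 408, 425 and 464 CPM in CK, 431, 418 and 462 in DCM and 559.9, 522 and 492 in SPM, with SPM above all others (0.26 ± 0.08 (SE), adjusted p = 0.0401; with the GC offset described below -0.01, adjusted p = 0.937). Over all nuclear subunits, 42 had every SPM library below every DCM library and 4 had every one above, against 19.5% and 19.7% of all genes.

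**Figure D4:**
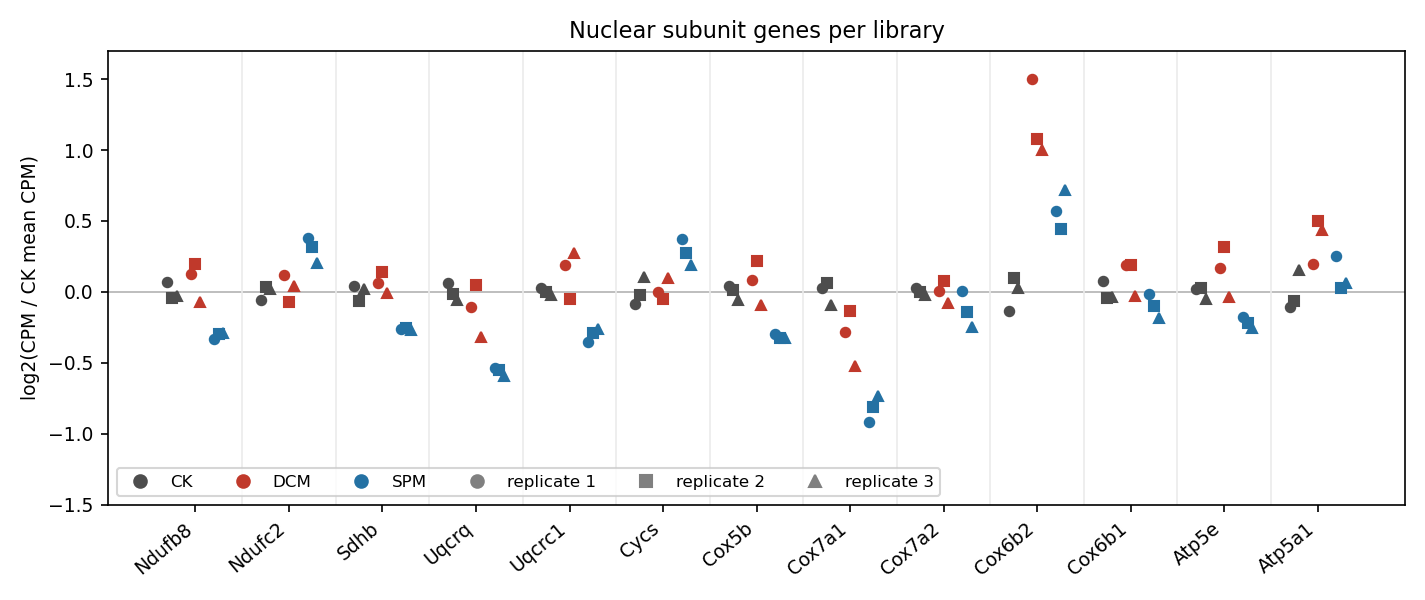
Log2 of CPM over the CK mean (y axis) for 13 nuclear subunit genes in each library, with colours for CK, DCM and SPM and symbols for the replicates. Cox7a1 steps down from CK to DCM to SPM, Cycs and Ndufc2 are highest in SPM on this scale (with the GC offset Cycs is at -0.01 in SPM compared to DCM), and Cox6b2 is highest in DCM.

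Of the 9 members that were DEGs in SPM compared to DCM, 8 rose (mt-Nd1, mt-Nd2, mt-Nd3, mt-Nd6, mt-Co3, mt-Atp6, mt-Atp8 and mt-Rnr2) and 1 fell (Cox6b2). Of all genes, 2.70% were DEGs that rose and 0.890% were DEGs that fell. Without SPM replicate 2, the DEGs were 4.

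GC content moved with these differences. Across all 14484 genes with a known GC content, the log2 fold change in SPM compared to DCM had a Spearman correlation of -0.50 with it, across the 77 nuclear subunits -0.59, and across the 8 mt- protein genes without a near-identical copy -0.83. These are descriptions across genes of the same 6 libraries. In DCM compared to CK the correlation over all genes was 0.06. Nuclear genes of 35% to 40% GC had a median log2 fold change of 0.37 in SPM compared to DCM, those of 45% to 50% had 0.05, and those of 55% to 60% had -0.17. The nuclear subunits were below these medians in each bin, at -0.06 (n = 3), -0.16 (n = 22) and -0.30 (n = 12). The 1250 nuclear genes within the GC range of the mt- protein genes had a median of 0.35. The median was 0.80 over all mt- protein genes and 0.59 over the 8 without a near-identical copy.

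With the GC offset, fewer members passed. In SPM compared to DCM, 3 mt- protein genes rose (mt-Nd3, mt-Nd6 and mt-Atp6), of which mt-Nd3 and mt-Atp6 are among the 5 uncertain genes. The median was 0.40 over all 13 and 0.22 over the 8 without a near-identical copy, and the ribosomal RNA genes did not pass. Of the nuclear subunits 4 fell (Ndufb8, Uqcrq, Cox5a and Cox5b) and 0 rose, with a median of -0.16. The mt- medians fell below 0 in complexes III (-0.01) and IV (-0.12), where the nuclear medians were -0.18 and -0.24, and stayed above 0 in complexes I (0.40) and V (1.33). The complex V value rests on mt-Atp6 and mt-Atp8 alone. Of all genes 1.52% rose and 1.02% fell. mt-Nd6 stood at 1.09, adjusted p = 0.0157. mt-Nd1, mt-Nd2 and mt-Co1 did not pass, at 0.31, adjusted p = 0.0701, at 0.40, adjusted p = 0.0617, and at -0.12, adjusted p = 0.56. The values for mt-Cytb and Cycs went to just below 0. Across the 8 mt- genes the correlation with GC content was still -0.83, and across the nuclear subunits it became 0.35. The part of GC content in the differences was not otherwise tested.

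**Figure D5:**
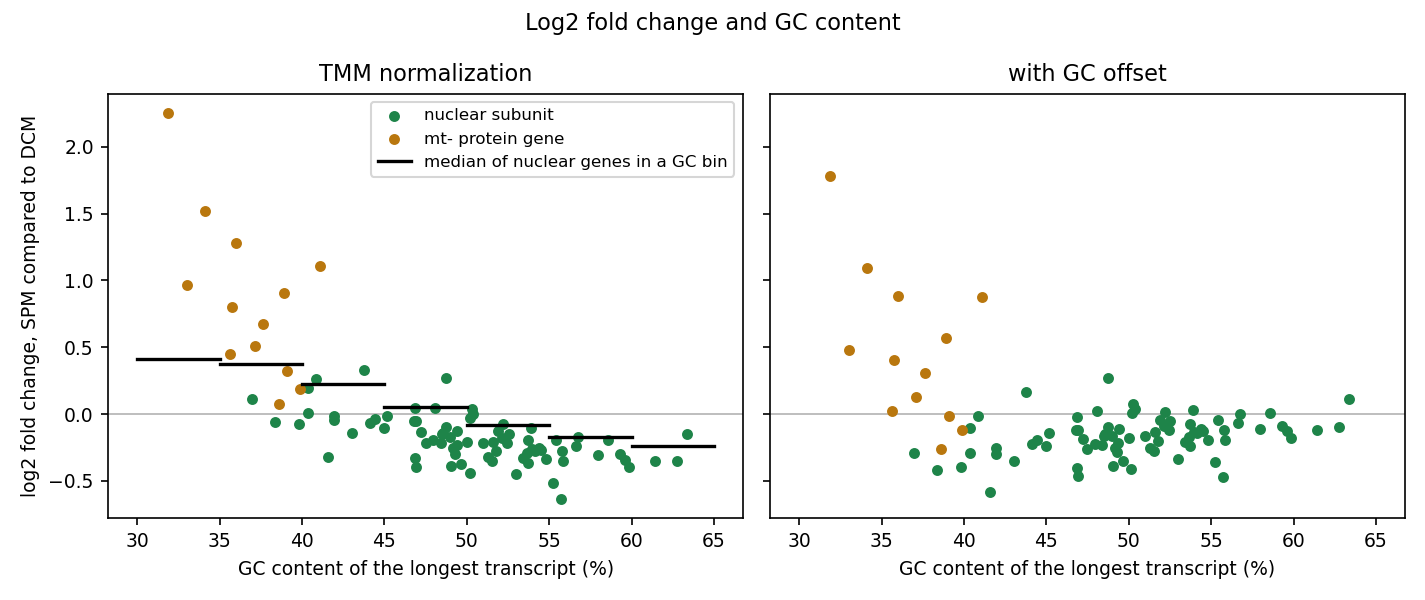
Log2 fold change in SPM compared to DCM (y axis) against GC content of the longest transcript in percent (x axis), for mt- protein genes and nuclear subunits, with TMM normalization at left and with the GC offset at right. Black lines at left are medians of all nuclear genes in a GC bin, falling from 0.41 to -0.24, and most nuclear subunits lie below them.

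The comparison of SPM with CK shares the SPM libraries with the previous comparison and the CK libraries with the first. In it 9 of 13 mt- protein genes rose and 0 fell (median 0.90), including all 8 without a near-identical copy. Of the nuclear subunits 27 fell and 2 rose (Ndufc2 and Cycs; median -0.13), beside 14.3% and 13.0% of all genes. The rises included mt-Nd6 (1.88 ± 0.18 (SE), adjusted p = 0.000748) and mt-Co1 (0.49 ± 0.05 (SE), adjusted p = 0.000625). Without SPM replicate 2, 8 mt- protein genes rose and 10 nuclear subunits fell, with 5.26% of all genes rising and 5.10% falling. With the GC offset 9 mt- protein genes rose, their median being 0.60, 8 nuclear subunits rose and 7 fell with a median of -0.0018, with 17.8% and 6.49% of all genes. More of all genes thus rose and fewer fell than without the offset (13.0% and 14.3%), and the counts and medians with it include that general shift. Of the mt- protein genes, 9 had all SPM libraries above all CK libraries and of the nuclear subunits 43 had them below, against 23.3% and 23.0% of all genes.

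The 10 members that were DEGs in SPM compared to CK were 7 mt- protein genes (mt-Nd1, mt-Nd2, mt-Nd4, mt-Nd5, mt-Nd6, mt-Nd4l and mt-Atp8) and mt-Tp, which rose, and Cox7a1 and Ndufa4l2, which fell. Without SPM replicate 2 the DEGs were 8. Of all genes 5.08% were DEGs that rose and 4.12% DEGs that fell. Cox7a1 fell further than any other nuclear subunit (-0.82 ± 0.07 (SE), adjusted p = 0.000406), and passed the test also with the GC offset (-0.60, adjusted p = 0.000719) and without SPM replicate 2 (-0.83, adjusted p = 0.00355). Uqcrq had the next largest fall (-0.57 ± 0.05 (SE), adjusted p = 0.000676), also past the threshold with the GC offset (-0.43, adjusted p = 0.000883) and without SPM replicate 2 (-0.57, adjusted p = 0.00673). The largest falls of complexes I and V were those of Ndufs8, an iron-sulfur subunit (-0.38 ± 0.06 (SE), adjusted p = 0.00327), and Atp5k, the e subunit of the synthase (-0.33 ± 0.07 (SE), adjusted p = 0.0126). In complex II it was Sdhb (-0.27 ± 0.05 (SE), adjusted p = 0.00676). The rises were those of Ndufc2 (0.30 ± 0.07 (SE), adjusted p = 0.0134) and Cycs (0.27 ± 0.07 (SE), adjusted p = 0.0221).

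Promoters of the members were compared by the letters of known motifs. RefSeq sequences (GRCm38.p6) of the 250 bases before the start were found for 65 nuclear subunit genes, in 70 windows, and each motif was searched on both strands. The core of the site of nuclear respiratory factor 1, GCGCATGC, was in 12.9% of these windows against 2.26% of all 32851 windows. CCGGAAG, a site of ETS factors such as GABP, was in 17.1% against 6.91%. AAGGTCA, a site of estrogen-related receptors, was in 7.14% against 4.08%, and AAGATGGC, a site of YY1, in 1.43% against 1.56%. Among the windows of subunits that fell in SPM compared to DCM, 16.7% held the GCGCATGC core (4 of 24 windows). Among those of tested subunits that did not fall it was 11.4% (5 of 44). In the same order, the shares were 16.7% and 15.9% for CCGGAAG, 4.17% and 9.09% for AAGGTCA, and 0% and 2.27% for AAGATGGC. All of these rest on few windows. Shown are the promoters of Cycs, which rose in SPM without the GC offset, and of Cox7a1, the subunit that fell most against CK. They lie at chr6:50566570-50566819 (minus strand) and chr7:30183921-30184170 (plus strand), with the core in capitals.
Cycs: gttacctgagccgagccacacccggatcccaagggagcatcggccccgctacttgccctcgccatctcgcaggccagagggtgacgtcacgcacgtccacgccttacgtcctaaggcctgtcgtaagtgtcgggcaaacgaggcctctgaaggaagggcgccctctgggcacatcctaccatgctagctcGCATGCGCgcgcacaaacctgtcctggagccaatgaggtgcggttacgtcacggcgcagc
Cox7a1: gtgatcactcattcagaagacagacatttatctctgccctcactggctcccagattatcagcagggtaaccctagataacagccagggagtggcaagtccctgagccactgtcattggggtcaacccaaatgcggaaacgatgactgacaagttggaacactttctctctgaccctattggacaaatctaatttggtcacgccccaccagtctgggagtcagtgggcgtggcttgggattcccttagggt
The Cox7a1 window holds none of the 4 motifs. The windows of Ndufc2, which also rose in SPM, and of Ndufb8, which fell, hold none of them either.

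Genes that build and serve the chain were measured beside it, in lists of related genes. Of the regulators of mitochondrial genes, 2 of 10 rose in DCM compared to CK, 2 rose and 1 fell in SPM compared to DCM, and 4 rose and 1 fell in SPM compared to CK (2 and 0 without SPM replicate 2). Shares over all genes, given above, were 5.28% and 5.11%, 8.87% and 7.76%, and 13.0% and 14.3% (rising and falling) in these comparisons, and with so few genes per list a count near them is not a result about the list. Ppargc1a, a coactivator known as a driver of mitochondrial biogenesis, was at 56.5 ± 5.37 CPM in CK, 72.7 ± 4.72 in DCM and 96.3 ± 8.51 in SPM (SD, n = 3), and rose in DCM compared to CK (0.37 ± 0.09 (SE), adjusted p = 0.0178) and again in SPM compared to DCM (0.41 ± 0.08 (SE), adjusted p = 0.015). Ppargc1b rose in DCM compared to CK (0.47 ± 0.09 (SE), adjusted p = 0.00455). Gabpa, the DNA-binding part of the ETS factor GABP, rose in SPM compared to DCM (0.43 ± 0.10 (SE), adjusted p = 0.0238), and Esrra, estrogen-related receptor alpha, fell (-0.23 ± 0.06 (SE), adjusted p = 0.0377). Perm1, the most abundant of the list, was at 288 ± 14.5 CPM in CK and 309 ± 21.6 in SPM. With the GC offset none of the 10 passed in SPM compared to DCM.

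Of 36 tested genes for the replication, transcription and translation of mitochondrial DNA, none passed in DCM compared to CK, and 3 rose and 4 fell in SPM compared to DCM, beside 8.87% and 7.76% of all genes, so that these counts are close to the background. Mtpap, the mitochondrial poly(A) polymerase, rose (0.54 ± 0.11 (SE), adjusted p = 0.0158), as did Mterf3, a negative regulator of mitochondrial transcription (0.45 ± 0.12 (SE), adjusted p = 0.0358). Tufm, the mitochondrial elongation factor Tu, fell (-0.38 ± 0.09 (SE), adjusted p = 0.0255), and Polrmt, the mitochondrial RNA polymerase, fell too (-0.33 ± 0.08 (SE), adjusted p = 0.0216). Fastk, the most abundant of the list, fell from 284 ± 19.8 CPM in DCM to 227 ± 2.07 in SPM (-0.33 ± 0.07 (SE), adjusted p = 0.0184). Against CK 4 rose and 6 fell in SPM (0 and 2 without SPM replicate 2), and Tufm had the largest fall (-0.48 ± 0.07 (SE), adjusted p = 0.00315).

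Of 45 tested assembly factors, 2 fell in DCM compared to CK, a share below the 5.11% of all genes, namely Higd1a (-0.29 ± 0.07 (SE), adjusted p = 0.0251) and Cox15 (-0.27 ± 0.07 (SE), adjusted p = 0.0291). Against DCM 7 fell and 2 rose in SPM, the rises being those of Ndufaf4 (0.44 ± 0.08 (SE), adjusted p = 0.0124) and Ndufaf2 (0.45 ± 0.12 (SE), adjusted p = 0.0327). Against CK 12 fell in SPM and 0 rose (4 and 0 without SPM replicate 2, and 9 and 4 with the GC offset), with Higd1a (-0.52 ± 0.07 (SE), adjusted p = 0.00154) and Bcs1l, which inserts the Rieske protein into complex III (-0.51 ± 0.08 (SE), adjusted p = 0.00379), falling most. Uqcc1, the most abundant, was at 153 ± 10.9 CPM in CK and 160.3 ± 8.2 in SPM. Of 25 tested genes for electron carriers and transport, 1 rose (Etfdh, 0.30 ± 0.08 (SE), adjusted p = 0.0325) and 1 fell (Ucp3, -0.61 ± 0.09 (SE), adjusted p = 0.00145) in DCM compared to CK. In SPM compared to DCM 7 fell and 0 rose. The largest of these falls were Coq8b (-0.57 ± 0.16 (SE), adjusted p = 0.04) and Coq10a (-0.43 ± 0.07 (SE), adjusted p = 0.0111). Against CK 2 rose and 8 fell in SPM (2 and 4 without SPM replicate 2, and 7 and 3 with the GC offset), led by Ucp3, an uncoupling protein of muscle and heart (-0.97 ± 0.15 (SE), adjusted p = 0.00332). Slc25a4, the adenine nucleotide carrier and the most abundant of the list, was at 5369 ± 215 CPM in CK, 6357 ± 476 in DCM and 6261 ± 701 in SPM. Without SPM replicate 2, none of the members of these 4 lists passed in SPM compared to DCM, and with the GC offset 1 did, an assembly factor that fell.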

How the data were processed

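RNA-seq libraries were made from the myocardium of 9 mice or pools, 3 per group, with mRNA enrichment and ribosomal RNA depletion, on an Illumina HiSeq instrument. The deposited matrix holds raw counts per gene made by the authors. Separate files for each library hold FPKM, which the authors computed from those counts, the gene length and the library total. Per the labels, the submitters' processing notes list Bowtie 0.12.2, mm8 and mm9, with no role given. For the counter, the annotation and the strandedness, the sources used here give nothing. Groups were taken from the labels. Symbols were matched to 22820 of 22851 identifiers, and GC content was taken from the longest GENCODE M21 transcript (GRCm38).

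Counts were tested for each pair of groups with the 6 libraries concerned in edgeR 4.0.16 (filterByExpr, TMM, quasi-likelihood F-test, R 4.3.3), with p-values adjusted by Benjamini-Hochberg over all genes tested and 0.05 as the limit, and were tested on simulated data first. CPM values use TMM library sizes. The study's criterion for a DEG, a fold change of at least 1.5, was kept. FPKM served only to compare levels between genes and, with limma 3.58.1 on log2(FPKM + 0.1), as an alternative. Other alternatives were DESeq2 1.42.0, other filters and scalings, a GC offset (lowess, span 0.3), a replicate block and the omission of each library. Summing nuclear copies, and the GC offset without SPM replicate 2, were added after the data were seen. Shared transcript sequence was found with blastn 2.17.0. Total gene counts of 29901300 to 39718680 per library set the precision.

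The members and gene lists were chosen with earlier results of these data known. Genes named are the mt- genes for proteins and ribosomal RNAs, the most abundant nuclear member of each complex, the largest rise and fall per complex and comparison among genes past the limit, all DEGs, paralog pairs, and from each other list the 2 largest changes and the most abundant gene. Other genes named, such as Cyc1, Cox5b, Esrra and Polrmt, were chosen after their values were seen. The values of 1 member are not reported here.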

Additional observations from a re-analysis of the deposited data

How the results depend on the processing

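Nuclear medians in this section are over all nuclear members tested, pseudogenes and related genes included. The direction of the mt- median in SPM compared to DCM and in SPM compared to CK, and that of the nuclear median in SPM compared to DCM, was kept under each alternative, while the numbers of members past the limit were not. In DCM compared to CK, 4 members passed, and 9 did so with DESeq2, 16 without a low-count filter, 19 with the GC offset and 13 with the GC offset and a replicate block. There was 1 DEG, against 3 without the filter and 2 at a fold change of 1.3. The nuclear median was 0.05, and 0.15 with the GC offset, 0.15 with the offset and block, and -0.048 with limma on FPKM. In SPM compared to DCM, 41 members passed, and 7 with the GC offset, 19 with the offset and block, and 2 with the offset without SPM replicate 2. The 9 DEGs became 3, 4 and 2 under those settings, and 18 at a fold change of 1.3. The mt- median was 0.40, 0.41 and 0.41 there. mt-Cytb turned to -0.014, -0.0095 and -0.012, and Cycs to -0.015, -0.016 and -0.0093. In SPM compared to CK, 40 members passed, and 26, 26 and 9 under the same 3 settings, with an mt- median of 0.60, 0.60 and 0.59 and a nuclear median of -0.0018, -0.0013 and 0.0065 (-0.23 with limma). As a share of all counts, nuclear members held 4.08% in CK, 4.06% in DCM and 3.55% in SPM, and mt- protein genes alone held 20.8% in SPM. The cause of these changes was not tested.

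With single libraries left out, 2 to 5 members passed in DCM compared to CK (1 to 3 DEGs), 4 to 49 in SPM compared to DCM (3 to 10 DEGs, mt- median 0.60 to 0.95) and 20 to 39 in SPM compared to CK (mt- median 0.52 to 1.01). In SPM compared to DCM the low counts were 4 without SPM replicate 2, 5 without DCM replicate 2 and 11 without DCM replicate 1. mt-Co2, SPM compared to CK, ran from -0.80 to 1.06, the latter without CK replicate 2. The replicate numbers did not pair the libraries (correlations of same-numbered libraries from -0.0746 to 0.205). With the replicate block, 4, 48 and 42 members passed in DCM compared to CK, SPM compared to DCM and SPM compared to CK. mt-Atp8, at 1 to 25 counts per library, is limited by depth.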
